A study of Homo sapiens with 5 samples.

Results

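The CUT&Tag peaks described here are the 689 of 2272 peaks of U-937 replicate 1 (30.3%, exact 95% interval 28.4 to 32.3) whose summit lay inside a gene and over 1000 bp from every gene start and end. A gene was a protein-coding or lncRNA gene of the RefSeq annotation, and the rule used position alone, on chromosomes 1 to 22 and X. The remaining peaks of the list were 1202 within 1000 bp of a gene start or end (boundary peaks) and 381 between genes (intergenic peaks). U-937 and THP-1 are established human cell lines with monocytic features, both labelled as acute myeloid leukemia cells. Both were grown in serum-supplemented RPMI1640 with no treatment given in the labels. Of 2 U-937 and 3 THP-1 libraries, all made with a FOXO3A antibody, only the first replicate of either line had any peak, and 3 had 0. A single library therefore stands behind every value, so no p-value was possible and no value has a replicate check, and peaks of 1 library are not replicates of a condition. Intervals cover counting error only. No control library was used here, and the sources used here state neither the read depth nor the background of the authors' fold enrichment.

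FOXO3A is a forkhead transcription factor downstream of PI3K and AKT: phosphorylation by AKT holds it in the cytoplasm, and when the pathway is quiet it enters the nucleus and acts on genes of cell cycle arrest, apoptosis, autophagy and stress resistance. In CUT&Tag an antibody tethers the transposase Tn5 to chromatin, so that DNA near the antibody's target is cut and tagged. Sequence inside genes holds alternative promoters, from which shorter or differently begun transcripts of the same gene arise, as well as intronic enhancers. The gene table used here gave spans without exons, so whether a peak was exonic or intronic was not analysed here.

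The gene-body peaks that lay closest to a known promoter were set apart first. RefSeq lists several transcription starts for many genes, and 5348 of those starts lay over 1000 bp from every gene boundary, here called internal starts. Of the 636 gene-body peaks on chromosomes whose internal starts were used, 81 (12.7%, exact 95% interval 10.2 to 15.6) lay with their summit within 1000 bp of a start. All 81 lay at a start of their own host gene. Among these, the starts in FNDC3A, NIM1K and TNFRSF14 lay within 1000 bp of a gene boundary, and they are grouped with the internal starts for these peaks. The gene interior within 1000 bp of an internal start was 10.0 Mb, or 0.689% of all interior sequence, so the share of peaks there was 18.5 times the share of sequence. Seen from the starts, 112 of 5348 internal starts had a peak summit within 1000 bp (2.09%), against 1739 of 29613 starts at gene boundaries (5.87%).

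Windows of 5 internal starts are shown because they carry the repeated short motifs described below. Gene-body peaks overlapped them in full (L3MBTL1) or in part, and THP-1 peaks overlapped part of those of TEDC1, HNRNPL and HNRNPUL1. Each runs 5′ to 3′ from 250 bases before the start to 50 after it, on the gene's strand, from RefSeq GRCh38.p14. Capitals mark the CCAAT box (CCAAT or its complement ATTGG), the GC box (GGGCGG or CCGCCC) and, in L3MBTL1, the unit GGGCGTGG. The windows are TEDC1 at chr14:105490996-105491295 (plus strand), KAT6B at chr10:74826350-74826649 (plus), L3MBTL1 at chr20:43514191-43514490 (plus), HNRNPL at chr19:38849937-38850236 (minus) and HNRNPUL1 at chr19:41264122-41264421 (plus).
TEDC1: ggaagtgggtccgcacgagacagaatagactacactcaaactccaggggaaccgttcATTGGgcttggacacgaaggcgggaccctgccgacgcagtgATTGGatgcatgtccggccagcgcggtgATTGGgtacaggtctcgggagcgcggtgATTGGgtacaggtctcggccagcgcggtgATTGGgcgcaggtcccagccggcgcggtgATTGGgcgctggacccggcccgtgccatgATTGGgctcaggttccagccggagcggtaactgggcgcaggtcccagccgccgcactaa
KAT6B: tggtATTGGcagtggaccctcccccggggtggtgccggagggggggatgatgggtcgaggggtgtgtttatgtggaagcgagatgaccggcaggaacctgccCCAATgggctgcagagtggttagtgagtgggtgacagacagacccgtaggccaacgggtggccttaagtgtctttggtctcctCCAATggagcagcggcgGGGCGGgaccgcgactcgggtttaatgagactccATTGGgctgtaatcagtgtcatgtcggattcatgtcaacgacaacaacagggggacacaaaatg
L3MBTL1: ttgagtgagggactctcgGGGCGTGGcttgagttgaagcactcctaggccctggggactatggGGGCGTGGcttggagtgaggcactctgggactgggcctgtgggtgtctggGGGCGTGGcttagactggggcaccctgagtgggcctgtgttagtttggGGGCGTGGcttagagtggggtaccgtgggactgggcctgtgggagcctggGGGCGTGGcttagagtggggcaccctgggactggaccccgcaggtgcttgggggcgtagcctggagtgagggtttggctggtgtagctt
HNRNPL: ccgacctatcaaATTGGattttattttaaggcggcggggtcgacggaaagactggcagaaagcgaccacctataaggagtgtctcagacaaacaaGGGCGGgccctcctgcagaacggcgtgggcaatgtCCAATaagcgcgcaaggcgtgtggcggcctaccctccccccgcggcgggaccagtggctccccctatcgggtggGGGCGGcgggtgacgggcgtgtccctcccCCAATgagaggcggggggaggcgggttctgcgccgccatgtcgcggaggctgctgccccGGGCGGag
HNRNPUL1: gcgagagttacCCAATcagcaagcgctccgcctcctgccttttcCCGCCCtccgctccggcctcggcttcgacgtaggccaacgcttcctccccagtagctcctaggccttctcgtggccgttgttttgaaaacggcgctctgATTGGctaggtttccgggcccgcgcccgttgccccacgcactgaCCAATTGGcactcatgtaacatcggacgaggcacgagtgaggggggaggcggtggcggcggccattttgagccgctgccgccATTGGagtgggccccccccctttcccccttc

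TEDC1, which encodes a component of a tubulin complex of the centriole, had a peak of 12.2-fold enrichment whose summit lay 224 bp upstream of the internal start. Its window held 7 CCAAT boxes, all read on the opposite strand, and the peak covered the first 201 of its 300 bases. KAT6B, a histone acetyltransferase gene translocated in some leukemias, had an 11.4-fold peak 185 bp upstream of its internal start. The peak covered the first 224 bases of a window with 4 CCAAT boxes and 1 GC box. The 11.2-fold peak in L3MBTL1, which encodes a reader of methylated histone lysines, covered the whole window. That window repeated GGGCGTGG 5 times and held no CCAAT box. HNRNPL and HNRNPUL1, genes of RNA-binding proteins that take part in RNA processing, had 10.5-fold and 8.48-fold peaks. Their windows held 3 and 5 CCAAT boxes, and 3 and 1 GC boxes, in that order. In HNRNPUL1, a pair of its CCAAT boxes overlaps as CCAATTGG. The peaks covered the first 221 bases of the HNRNPL window and only the first 109 of the HNRNPUL1 window. In HNRNPUL1 only the first CCAAT box therefore lay under the peak, and that pair lay outside it. The last CCAAT box of the TEDC1, KAT6B and HNRNPL windows also lay past the covered bases.

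The same letters were counted in the window of the internal start nearest to each of the 81 summits. The peak overlapped that window in 65 cases, and in the other 16 it lay beside it. At least 1 CCAAT box stood in 31 of 81 windows (38.3%) and in 29 of the 65 that the peak overlapped (44.6%), against 31.9% of 5236 internal starts without a peak and 34.6% of all 34961 starts. At least 3 stood in 10 of 81 (12.3%), against 2.02% of internal starts without a peak and 3.26% of all starts. The GC box was in 54 of 81 windows (66.7%), against 33.2% without a peak and 45.0% of all starts. Boundary starts with a peak had similar or higher shares: 46.3% had a CCAAT box, 12.4% at least 3, and 73.1% a GC box. The median window was 63.7% G and C with 23 CpG dinucleotides at internal starts with a gene-body peak, against 53.7% and 6 at internal starts without a peak and 64.3% and 26 at boundary starts with a peak. The part of base composition in the motif counts was not tested.

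The forkhead letters were not found in these windows, at a depth of 81 windows that allows a share of up to 3.70%. GTAAACA, the core that forkhead factors bind, stood in 0 of 81 windows on either strand, against 4.16% of internal starts without a peak, 1.67% of boundary starts with a peak and 3.42% of all starts. TTGTTTAC is a longer form that holds all of GTAAACA when read on the opposite strand, so its 0 of 81 follows from the first count. Its shares in those 3 sets were 1.26%, 0.403% and 0.958%. For GTAAACA the limit lies above the shares over all starts and at boundary starts with a peak, so a share below theirs was not detectable. It lies below the 4.16% of internal starts without a peak. In the 65 windows that the peak overlapped, GTAAACA was also found in 0, and there the limit is 4.62%. That limit lies above the 4.16%, so a share below that of internal starts without a peak was not detectable in those windows. For TTGTTTAC the limit lies above the shares of all 3 sets. These counts say only that the letters are not in these 300 bases, and sequence outside the start windows was not analysed here.

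Other motifs were set against the same 3 sets, given in the order internal starts without a peak, boundary starts with a peak and all starts. The cyclic AMP element TGACGTCA was in 2 of the 81 windows (2.47%), against 0.974%, 2.99% and 1.85%. The E-box CACGTG was in 9.88%, against 5.52%, 10.4% and 7.27%. The ETS motif CCGGAAG was in 7.41%, against 5.19%, 18.9% and 10.3%. The AP-1 motif TGACTCA was in 3.70%, against 6.30%, 2.53% and 4.92%. The NRF1 motif was in 0 of 81, which allows up to 3.70%, against 0.573%, 2.88% and 1.24%. GGGCGTGG, chosen after the letters of the L3MBTL1 window were seen, was in 11 of 81 (13.6%), against 3.57%, 8.68% and 5.03%.

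The summits sat just upstream of the internal starts, which were not analysed on chromosome 8 and its 53 gene-body peaks. The signed distance from start to summit had a median of -154 bp (quartiles -207 and -16, range -915 to 867, negative being upstream). Of the 81 summits, 63 were upstream (77.8%, exact 95% interval 67.2 to 86.3), 17 downstream and 1 on the start itself, and 40 lay 50 to 250 bp upstream. Boundary peaks gave a similar picture: 1013 of 1146 off chromosome 8 lay within 1000 bp of a start, with a median of -121 bp and 721 upstream (71.2%). Density followed the same gradient, with 22.4 gene-body peaks per Mb of interior within 250 bp of an internal start, 5.41 at over 250 to 500 bp and 2.16 at over 500 to 1000 bp. Beyond 1000 bp the distance was to the nearest start of any kind, outer starts included. At over 1000 to 3000 bp from such a start the density was 0.643, and over 10000 bp away it was 0.344 per Mb. This outer part of the gradient therefore also holds distance from gene boundaries.

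**Figure D1:**
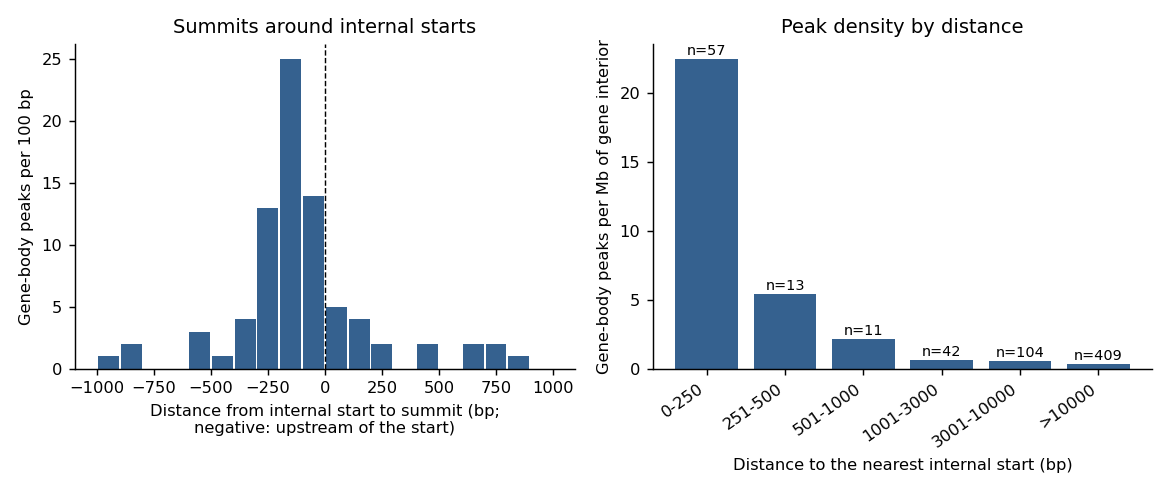
Left, number of gene-body peaks of U-937 replicate 1 per 100 bp of signed distance from the nearest internal start to the summit (bp, negative upstream, n = 81). Right, gene-body peaks per Mb of gene interior by distance to the nearest start (bp), with the number of peaks on each bar. The axis names internal starts, but beyond 1000 bp the nearest start can be an outer one. The density is 22.4 per Mb within 250 bp and 0.344 per Mb beyond 10000 bp.

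The internal starts with a peak belonged to genes of many kinds. From the list of chromatin regulators described below came KAT6B, BRD2 (a bromodomain reader of acetylated histones, 6.38-fold, summit 167 bp downstream of the start) and KDM2A (a histone demethylase, 5.77-fold, 184 bp upstream). The share of that list among all genes with an internal start was not counted. The other genes named here were chosen after their values were seen. THRAP3, a splicing and transcription cofactor, had a 9.78-fold peak 210 bp upstream of an internal start, and that summit lay 16596 bp from the nearest boundary. GNAI2, an inhibitory G protein alpha subunit, had 8.92-fold at 185 bp upstream, and SIN3A, the scaffold of a histone deacetylase complex, 6.30-fold at 187 bp upstream. ALDOA, the glycolytic aldolase, had 7.02-fold at 180 bp upstream, and IDI1, an enzyme of isoprenoid synthesis, 7.94-fold at 169 bp upstream. FOXP1, a forkhead gene, had a 7.72-fold peak 725 bp downstream of its internal start, so it belonged to the minority on that side. Among the genes with a gene-body peak at an internal start, 1 of 81 (1.23%) also had a peak at its own outer boundary, beside 7.33% of all protein-coding genes long enough to host a gene-body peak.

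The strongest gene-body peaks fell into a few kinds of site. The highest was in RGPD2, a member of the RANBP2-like gene family, at chr2:87824890-87825422, with 22.03-fold enrichment, a width of 533 bp and a summit 65805 bp from the nearest boundary. The next was in AKAP6, which anchors protein kinase A in muscle and nerve cells, at chr14:32484340-32484887, with 20.4-fold, 548 bp and 155462 bp. PCNX2 followed with 13.3-fold at chr1:233112982-233113334. SMAD2, a transcriptional effector of TGF-beta, had 12.4-fold at chr18:47853246-47853441. The peaks in RGPD2, AKAP6 and SMAD2 overlapped nuclear copies of mitochondrial genes, described below.

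TEDC1 ranked next with 12.2-fold at chr14:105490846-105491196, 1167 bp from the nearest boundary. SUN3, a gene of the nuclear envelope, had 11.6-fold at chr7:47991922-47992189. RAD51B, a gene of homologous recombination, also had 11.6-fold, at chr14:68397437-68397765, where the lncRNA gene LOC101927971 overlaps it. FSTL3, a secreted inhibitor of activin, had 11.5-fold at chr19:680733-680997. These last 3 lay 4642, 2273 and 2511 bp from a boundary, and none was within 1000 bp of an internal start.

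KAT6B had 11.4-fold at chr10:74826193-74826573 and KIAA0825 had 11.3-fold at chr5:94568920-94569114, again on a mitochondrial gene copy. L3MBTL1 (chr20:43514054-43514578) and COX7A2L (chr2:42361270-42361618), whose product helps assemble respiratory supercomplexes, had 11.2-fold each. DYRK1A, a dual-specificity kinase, had 10.9-fold at chr21:37366503-37366716. PFKFB4, which sets the level of the glycolytic activator fructose-2,6-bisphosphate, had 10.8-fold at chr3:48556941-48557402. SLIT1, a ligand of axon guidance receptors, closed the leading 15 with 10.7-fold at chr10:97070108-97070334. COX7A2L, DYRK1A and PFKFB4 were at internal starts, with summits 118, 133 and 293 bp upstream.

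Most gene-body peaks were weaker and narrow. Their fold enrichment, the authors' own value and used within this list only, had a median of 5.86 (quartiles 4.64 and 7.2, range 2.89 to 22.03), against 6.58 for boundary and 5.60 for intergenic peaks. Of the 100 strongest peaks of the list, 16 were gene-body peaks, and 24 of the 689 reached 10-fold. At the other end, 87 (12.6%) shared the lowest value of the list, 2.89. The median width was 226 bp (quartiles 203 and 298, range 192 to 921), against 252 bp at boundaries and 220 bp between genes. A width of up to 250 bp was found for 438 (63.6%) and a width over 500 bp for 21 (3.05%). A deposited -log10 q of at least 5 was reached by 285 of the 689 (41.4%), against 54.5% of boundary and 35.2% of intergenic peaks.

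Within the gene-body class, values followed the type of site. Peaks at internal starts had a median of 6.84-fold and 257 bp, and 58.0% had a -log10 q of at least 5. The 555 gene-body peaks elsewhere off chromosome 8 had 5.69-fold, 222 bp and 38.6%. The interquartile ranges overlapped, from 5.73 to 8.34-fold at internal starts and from 4.48 to 7.05-fold elsewhere. Peaks whose hosts were protein-coding only had a median of 5.97-fold (n = 545), and those in lncRNA genes only 5.47-fold (n = 115). Members at internal starts also lay nearer a boundary, at a median of 5121 bp against 13654 bp elsewhere.

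**Figure D2:**
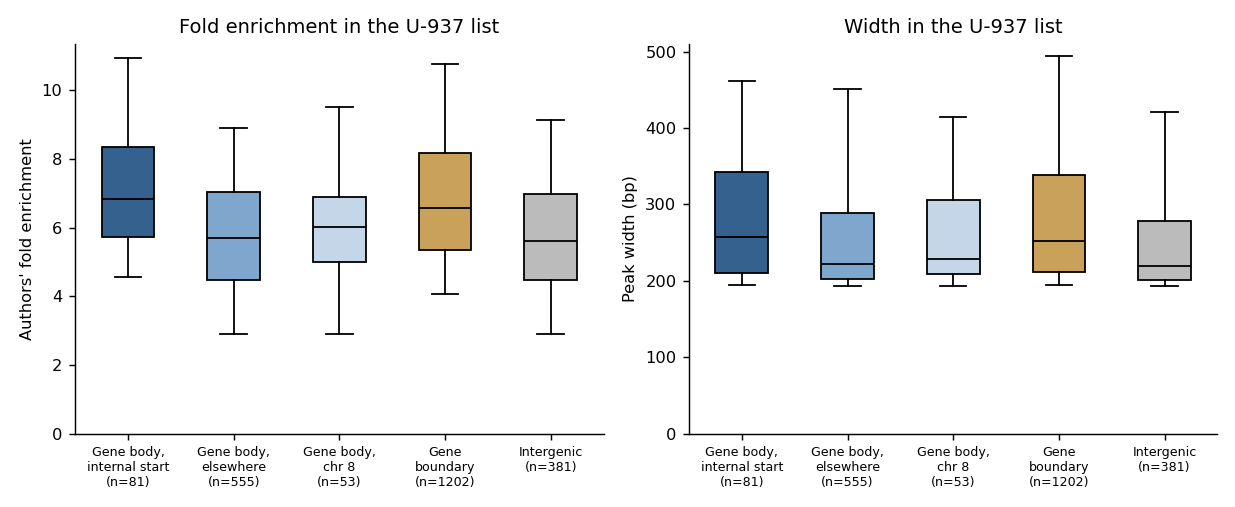
Authors' fold enrichment (left) and peak width in bp (right) for U-937 gene-body peaks at internal starts, elsewhere and on chromosome 8, and for boundary and intergenic peaks of the same list. Boxes span the quartiles with the median as a line and whiskers the 5th to 95th percentile; the medians are 6.84, 5.69, 6.03, 6.58 and 5.60-fold from left to right.

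The 689 peaks lay in 694 host genes, 546 protein-coding and 148 lncRNA. That was 2.93% of the protein-coding genes of at least 2003 bp, the shortest span that can hold such a peak, and 0.943% of the lncRNA genes of that length. Only protein-coding hosts were found for 545 peaks (79.1%), only lncRNA hosts for 115 (16.7%, exact 95% interval 14 to 19.7) and both for 29 (4.21%). A summit lay in 1 gene span for 640 peaks, in 2 for 48 and in 3 for 1. Of the 32 peaks in several spans whose strands were known, 27 had hosts on opposite strands, so that a position alone does not assign them to a gene. The 285 peaks with a -log10 q of at least 5 lay in 284 hosts.

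Hosts were long genes. The median protein-coding host spanned 95231 bp against 27565 bp for all protein-coding genes of sufficient length, and the median lncRNA host 47026.5 bp against 11504.5 bp. The share of protein-coding genes that hosted a peak was 0.107% among the shortest and 9.46% among the longest when the genes were cut by length into 10 groups of equal number. Per length of gene the order was not the same: the density was between 0.625 and 0.856 peaks per Mb of span in groups 2 to 7, counted from the shortest, 0.512 in group 9 and 0.287 in group 10. Long genes thus held more peaks each, but fewer per Mb of their span than genes of middle length. Group 1, the shortest, had 0.314 per Mb of span. The rule leaves out 1000 bp at each end of a span, which is a larger share of a short gene.

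**Figure D3:**
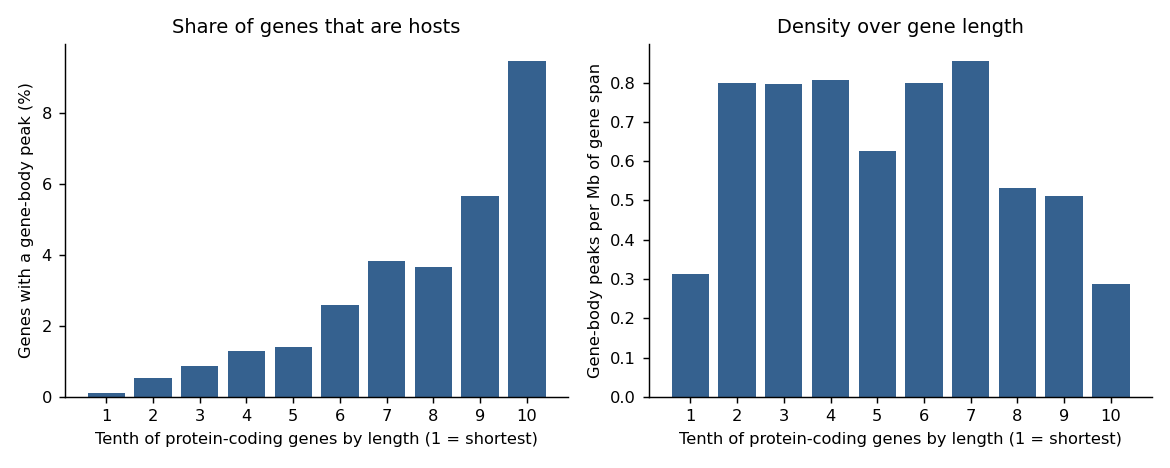
Share of protein-coding genes with a gene-body peak in % (left) and gene-body peaks per Mb of gene span (right) by gene length in 10 groups of equal number, 1 being the shortest. The share runs between 0.107% and 9.46%, while the density is 0.287 per Mb in the longest group.

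Few hosts had a peak at their own boundary as well. Among protein-coding genes, 33 of 546 hosts had one (6.04%, exact 95% interval 4.20 to 8.38), against 1331 of 18063 genes that were no host (7.37%). Among lncRNA genes, 5 of 148 hosts had one (3.38%, 1.11 to 7.71), against 278 of 15548 others (1.79%) and 1.8% of all lncRNA genes of sufficient length. Both host intervals include the share of the genes that were no host.

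Several peaks in a single gene were uncommon. A single peak was found in 654 hosts, 2 in 35 and 3 in 5, and the 40 hosts with at least 2 were 35 protein-coding and 5 lncRNA genes. The 83 peaks in these 40 hosts had a median of 6.66-fold and 262 bp, beside 5.86-fold and 226 bp over all 689. A peak at the own boundary was present in 3 of the 40. Counting only peaks with a -log10 q of at least 5, 20 hosts had several.

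The 5 hosts with 3 peaks were BCOR, CNIH3, MYO9B, RANBP2 and the lncRNA gene LOC107985960. BCOR, a corepressor of BCL6 that is recurrently mutated in acute myeloid leukemia, had 8.0, 5.69 and 5.55-fold peaks, the last 2 of which lay 6100 bp apart. CNIH3, an auxiliary protein of glutamate receptors, had 10.2, 8.53 and 6.98-fold peaks spread over its span. MYO9B, a myosin with a GTPase-activating domain, had 8.31, 6.59 and 6.41-fold. LOC107985960 had 9.89, 8.34 and 7.35-fold, and its 8.34-fold peak was at an internal start. RANBP2, a nucleoporin gene, had 9.90, 9.04 and 3.59-fold. The annotated span of RANBP2 was 1122820 bp, and its 9.90 and 9.04-fold peaks also lay in SH3RF3, so they have no single host.

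Of the 35 hosts with 2 peaks, 4 are named here, and of these LCP2 was chosen after its values were seen. RUNX1, a master transcription factor of blood formation, had 7.42 and 7.02-fold peaks 42695 bp apart. The 7.42-fold peak also lay in the lncRNA gene RUNX1-AS1 on the opposite strand, so it has no single host. TFEB, which drives lysosomal and autophagy genes, had 8.17 and 8.05-fold peaks 17429 bp apart. PSTPIP1, a cytoskeletal adaptor of blood cells, had 7.17 and 7.08-fold peaks at a distance of 1124 bp. LCP2, the adaptor SLP-76, had 7.62 and 6.93-fold. In these 4 genes both peaks of a pair were of similar height. That did not hold for every host with 2 peaks: ERC2 had 2.89 and 6.50-fold, and PCBD2 7.46 and 4.65-fold.

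**Figure D4:**
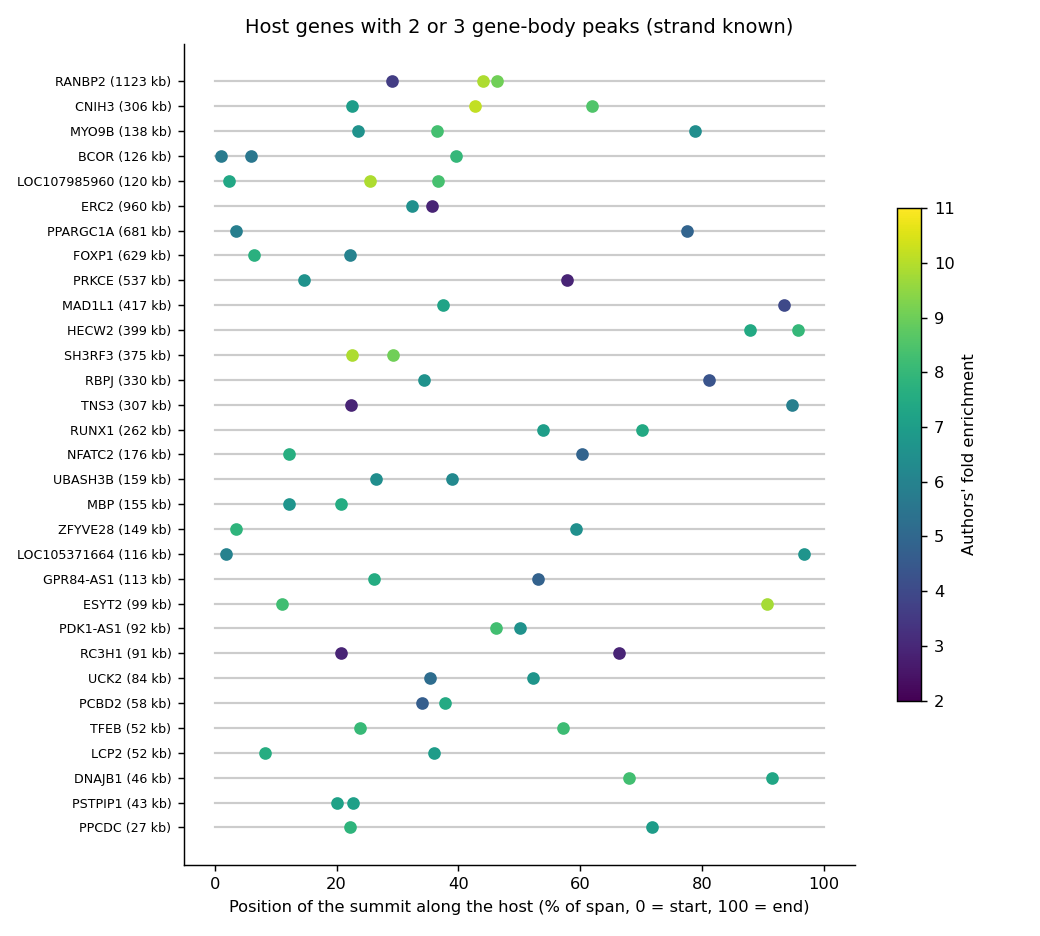
Position of each gene-body peak along its host gene (% of the span, 0 being the start and 100 the end) for the 31 of 40 hosts with 2 or 3 peaks whose strand was known. Points are coloured by the authors' fold enrichment and the span is beside each symbol; BCOR's 3 peaks lie before the middle of the gene, and those of CNIH3 are spread out.

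The summits lay a median of 11603 bp from the nearest gene boundary (quartiles 4553 and 29039, range 1024 to 509456). Within 5000 bp there were 182 (26.4%), within 10000 bp 313 (45.4%), and 24 (3.48%) were over 100000 bp away. Per Mb of gene interior, the density was 0.763 up to 2000 bp from a boundary, 0.616 at over 5000 to 10000 bp, 0.314 at over 50000 to 100000 bp and 0.131 beyond. The median fold was 6.15 up to 2000 bp, 5.47 at over 50000 to 100000 bp and 5.72 beyond. Counting protein-coding genes alone, the median distance was 17405 bp. Of 484 peaks with 1 host of known strand, 274 (56.6%, exact 95% interval 52.1 to 61.1) were nearer to the start of the host than to its end.

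**Figure D5:**
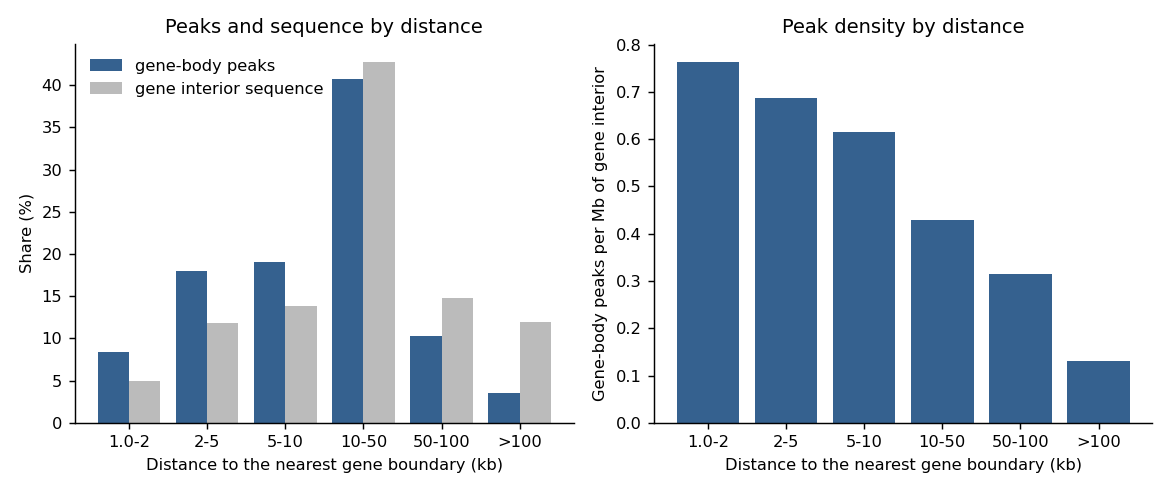
Left, share of gene-body peaks and of gene interior sequence (%) by distance to the nearest gene boundary (kb). Right, gene-body peaks per Mb of interior in the same bins; the density is 0.763 per Mb up to 2000 bp and 0.131 per Mb beyond 100000 bp.

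The peak farthest from any boundary was in LRP1B, a very large gene of a lipoprotein receptor family, at 509456 bp and 2.89-fold. ERC2, a gene of the presynaptic active zone, had peaks at 310324 and 278026 bp, with 2.89 and 6.50-fold. CTNND2, a delta-catenin gene, had one at 247242 bp (5.38-fold) and ROBO1, a SLIT receptor gene, one at 202935 bp (2.89-fold). At the limit of the class, the nearest members inside were in FNDC3A at 1024 bp (4.92-fold), YWHAZ at 1029 bp (4.72-fold) and SERTAD3 at 1043 bp (9.10-fold). Just outside lay peaks near RAP2A at 993 bp (7.99-fold), LOC124902244 at 997 bp (7.02-fold) and SESN3 at 1000 bp (4.48-fold).

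Gene lists of FOXO biology, myeloid identity and other processes gave 26 distinct hosts, to be read against the 2.93% of all protein-coding genes. Of 47 textbook FOXO targets 1 was a host (2.13%), KLF6, a zinc finger transcription factor, with a 6.11-fold peak. Of 37 genes of PI3K, AKT and mTOR signalling 1 was a host (2.70%), IGF1R, the receptor of insulin-like growth factor, with 7.31-fold. FOXO1, FOXO3, FOXO4 and FOXO6 hosted none. The apoptosis list gave 1 of 40 (2.50%), BCL2L1, which encodes BCL-XL, with 7.79-fold. The median lengths of these 3 lists were 14240, 86066 and 22329.5 bp, and length bears on the share of hosts as given above.

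Myeloid transcription factors gave 4 hosts of 38 (10.5%). They were RUNX1 (7.42-fold), FLI1, an ETS factor of megakaryocytes and vessels (6.88-fold), IKZF1, the Ikaros gene (5.77-fold), and MITF, a relative of TFEB (2.89-fold). The DNA damage list gave 4 of 40 (10.0%), among them RAD51B (11.6-fold), RAD52, a recombination mediator (5.73-fold, at an internal start) and TP53BP1, a double-strand break responder (4.48-fold). Chromatin regulators gave 5 of 62 (8.06%): KAT6B, BRD2, KDM2A, the remodeler CHD2 (7.12-fold) and the methyltransferase SETD2 (2.89-fold). The median lengths of the genes in these 3 lists were 24074, 55041 and 93681 bp, beside 27565 bp over all genes of sufficient length. With 4 or 5 hosts a list, these shares rest on few genes.

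Autophagy and lysosome genes gave 3 of 41 (7.32%): TFEB, MITF and ATG7, an enzyme of autophagosome formation (5.64-fold). Cell cycle genes gave 3 of 45 (6.67%): the mitotic kinase AURKA (7.55-fold), the spindle checkpoint gene MAD1L1 (7.23-fold) and CDK6, a G1 cyclin-dependent kinase (7.2-fold). Genes recurrently mutated in acute myeloid leukemia gave 2 of 35 (5.71%), BCOR and RUNX1. The inflammation list gave 2 of 40 (5%), among them IRAK2, a kinase of interleukin and Toll-like receptor signalling (6.50-fold). Monocyte and granulocyte genes gave 0 of 38, which allows up to 7.89%, erythroid genes 0 of 12, which allows up to 25%, and hepatocyte genes 0 of 23, which allows up to 13.0%. T and B lymphocyte genes gave 1 of 25 (4%), EBF1 (4.56-fold), and neuronal genes 1 of 25 (4%), AKAP6. The neuronal genes had a median length of 429505 bp, in the range of the longest group, where 9.46% of genes were hosts.

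Overlap with a gene of another kind was found for 16 gene-body peaks. Of these, 6 lay on pseudogenes of mitochondrial genes, which are old insertions of mitochondrial DNA into the nuclear genome, in 5 hosts. These were MTATP8P2 and MTATP6P28 in RGPD2 (22.03-fold), MTCO1P2 in AKAP6 (20.4-fold), MTCO2P2 in SMAD2 (12.4-fold) and MTND5P12 and MTND6P3 in KIAA0825 (11.3-fold). PCBD2 had 2 such peaks 2152 bp apart, of 7.46-fold on MTND4P12 with the greatest width of all gene-body peaks (921 bp), and of 4.65-fold on MTND5P11 and MTND6P4. Reads from these copies can resemble the mitochondrial genome, and how the authors' alignment assigned them is not given in the sources used here. Without these 6 the median fold over the other 683 was 5.86, the same as with them.

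Another 3 peaks overlapped tRNA genes: TRE-TTC2-1 in LOC107984619 (9.81-fold, 785 bp wide), TRL-CAA4-1 in PGBD2 (6.03-fold) and TRV-TAC1-1 in LOC102723575 (4.95-fold). A further 3 overlapped miRNA genes, MIR639 at an 8.29-fold peak shared by DNAJB1 and TECR, MIR3175 in CHD2 (7.12-fold) and MIR6876 in DOCK5 (6.78-fold). The peak in CHD2 ran over chr15:92904248-92904519 and contained the whole mature miRNA at chr15:92904408-92904429 (plus strand), given here from RefSeq with its seed, bases 2 to 8, in capitals.
hsa-miR-3175: cGGGGAGAgaacgcagugacgu

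A THP-1 peak was overlapped by at least 1 bp in 11 of the 689 gene-body peaks (1.60%, exact 95% interval 0.80 to 2.84), against 0.998% of boundary peaks and 0.525% of intergenic peaks of the list. Their hosts included RGPD2, AKAP6, TEDC1, FSTL3, HNRNPL, RASA3, HNRNPUL1, PSTPIP1 and SLC17A9. The one in RASA3, a Ras GTPase-activating protein gene, was 8.74-fold in U-937. The overlap was 413 bp in RASA3 and 351 bp, the full U-937 peak, in TEDC1. At internal starts 3 of 81 were shared (3.70%, 0.770 to 10.4), against 8 of 555 elsewhere (1.44%, 0.624 to 2.82), intervals that overlap. With a boundary window of 3000 bp in place of 1000 bp, 4 gene-body peaks overlapped a THP-1 peak. A gene-body peak in both lines was found in 28 genes, which was 4.03% of the U-937 hosts and 12.1% of the 232 THP-1 hosts. Beside that 12.1%, U-937 hosts were 2.93% of protein-coding and 0.943% of lncRNA genes, and 9.46% of the longest group of protein-coding genes; the part of gene length was not tested. The myeloid and lymphoid factor gene IKZF1 was among these 28, with peaks that did not overlap between the lines.

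Gene-body peaks were spread over all 23 chromosomes used. The median chromosome had 0.435 per Mb of gene interior, the highest was chromosome 19 with 1.37 (43 peaks) and the lowest chromosome 9 with 0.248 (16 peaks). Chromosome 19 held 212 peaks of the whole list, of which the gene-body peaks were 20.3%, beside 30.3% over all chromosomes. It also held 11 of the 81 peaks at internal starts. Another peak of the list had its summit within 10000 bp of 24 gene-body peaks (3.48%, exact 95% interval 2.24 to 5.14), against 4.49% of boundary and 5.25% of intergenic peaks. The whole gene interior had 0.449 gene-body peaks per Mb of its 1534 Mb, against 8.96 per Mb within 1000 bp of boundaries and 0.295 per Mb between genes.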

How the data were processed

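FOXO3A CUT&Tag peak lists of the 2 lines were used, 1 list per library. Bowtie2, Picard and the build hg38 are named in the submitters' processing notes, and the peak caller is not given in the sources used here. Per the layout of the deposited lists, which have no header, each peak carries a position, a summit, an integer score (10 times the -log10 p, rounded down, in all 2272 U-937 peaks), a linear fold enrichment (a ratio), and -log10 of p and q, as the authors deposited them.

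Summits were placed in the spans of 19821 protein-coding and 17904 lncRNA genes of RefSeq GRCh38.p14 with Python 3.11.15, pandas 2.3.3 and numpy 2.4.6. A further 679 genes were dropped because their positions did not ascend with those of their neighbours, as for genes of other scaffolds. Starts, strands and sequences came from RefSeq windows of 300 bases, matched by gene and not used on chromosome 8, and 10 motifs were counted on both strands. The 15 gene lists held 539 symbols, each present in the table. Shares have exact Clopper-Pearson intervals (scipy 1.17.1), and 3 counts set the limit that a count of 0 allows. The script that assigns summits to genes was checked on simulated positions. Named genes were the 15 strongest peaks, hosts with 3 peaks, the peaks farthest from a boundary and nearest the limit, the 10 strongest shared with THP-1, up to 4 hosts per list, the FOXO genes, and peaks on small RNA genes or mitochondrial pseudogenes. Some items that this rule names are not reported here. The members and lists were chosen with earlier results of these data known. Alternatives covered the q threshold, the boundary window, gene types and the overlap rule. Depth is unknown, and no test between groups was possible.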

Additional observations from a re-analysis of the deposited data

How the results depend on the processing

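Of 53 alternatives, 36 stayed within tolerance (1.5 times for counts) and 17 moved. With a -log10 q of at least 5, 285 gene-body peaks in 284 hosts were left, 20 hosts had several peaks, 11 peaks lay near another, 16 genes of the lists were hosts, the median width was 273 bp and the median fold 7.51, 13.7% of the peaks had lncRNA hosts only and 18.0% were at internal starts. With protein-coding genes only, the median distance to a boundary was 17405 bp. A boundary window of 3000 bp left 4 peaks shared with THP-1, 15 near another peak and 10.2% at internal starts, and a window of 500 bp gave 18.1% at internal starts. An internal start within 250 bp gave 8.96%, and a neighbour within 50000 bp gave 140 peaks near another. The internal-start alternatives and the omission of mitochondrial gene copies were chosen after seeing the data. Fewer peaks or a changed window enter each of these by construction. Leaving out either U-937 library gave between 0 and 689 gene-body peaks, since replicate 2 held none. No paired analysis was possible because 1 library of each line held peaks and no result comes from a test. Depth is unknown, so how many weaker peaks were missed cannot be stated.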
